A study of Mus musculus with 4 samples.

Results

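Hyaluronan is a long sugar polymer of the lung matrix, and 9 genes that make it, cut it or bind it were followed across the cells of the injured lung. The genes were Has1 and Has2 (synthesis), Cemip, Hyal1 and Hyal2 (breakdown), Cd44 and Lyve1 (receptors on cells) and Tnfaip6 and Vcan (proteins that attach to hyaluronan in the matrix), 9 of the 32286 genes counted. They were picked by name with their CPM by lineage and genotype already known, so these levels are given as a description and were not tested. The question was how each gene was spread over the cell lineages, and how its level in each lineage differed between wild-type (WT) mice and mice without Tubb3, the gene of a β-tubulin best known from neurons.

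Lung cells came from 2 Tubb3-/- mice and 2 WT littermates, all given bleomycin into the trachea at 0.8 U/kg, a drug that injures the lung and leads to fibrosis, and taken at day 14. The Tubb3-/- mice carry Cre recombinase at the translation start of both Tubb3 alleles, so that Cre replaces the protein in every cell, not in pericytes alone. Mice were 8 to 11 weeks old. There was no group without bleomycin, so every level below is that of an injured lung. Each mouse gave a whole-cell sample, depleted of red blood cells by TER-119, and a mural cell-enriched sample, depleted of TER-119, EpCAM, CD45 and CD31 cells and then sorted. In the sort, MCAM+ PDGFRα- cells and MCAM- cells were mixed in equal numbers. The 4 samples of a kind were tagged by mouse and sequenced as 1 pool.

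Hyaluronan is made at the cell membrane by the HAS enzymes, which add sugars from activated UDP forms and push the growing chain out of the cell. CEMIP (also called HYBID) and HYAL2 cut the long chains outside or at the surface of the cell, and HYAL1 cuts them further in lysosomes. CD44 holds hyaluronan at the surface of leukocytes and many other cells, LYVE1 does so in lymphatic and some blood endothelium, TSG-6 (the product of Tnfaip6) couples protein chains to hyaluronan during inflammation, and versican (Vcan) is a large proteoglycan that carries it in loose matrix. Hyaluronan is known to build up in the injured lung, and fibroblasts are known as a major source.

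Of 32121 deposited cells, 30860 passed the limits, with medians of 9436 to 16495 gene UMIs (unique molecular identifiers, 1 per captured RNA molecule) per cell in the 8 libraries. No cell barcode was shared within a pool (0 in all), and 59 were shared between libraries of the 2 pools. A cell was given to a lineage when it held at least 1 UMI of that lineage's marker and of no other. This gave 3792 fibroblasts (Pdgfra), 4541 mural cells (Higd1b or Myh11), 324 mesothelial cells (Msln), 2282 endothelial cells (Cdh5), 321 epithelial cells (Epcam) and 4389 immune cells (Ptprc). Another 14442 cells (46.8%) held markers of several lineages and were left out, and 769 held none. The cells left out had a median of 17437.5 UMIs against 6890 in immune cells and 17029.5 in fibroblasts. Each lineage held its own list of 5 markers at 2646 CPM or more in every mouse (CPM, UMIs per 1000000 gene UMIs of the lineage in that mouse). The mural lineage also held UMIs of the other 4 fibroblast markers (Col1a2, Lum, Dpt and Tcf21), at 1280 and 1432 CPM in all in WT mice and 2176 and 2318 CPM in Tubb3-/- mice, against 4285 to 6080 CPM for the whole list in fibroblasts. The mesothelial lineage held these 4 at 823 to 874 CPM in WT mice and 1632 to 2126 CPM in Tubb3-/- mice. Whether UMIs of fibroblasts have a part in the mesothelial levels below was not tested. Tubb3 itself was at 5.36 and 3.70 CPM in the WT mural cell-enriched libraries and at 0.695 and 0.655 CPM in those of Tubb3-/- mice. By Xist and 4 genes of the Y chromosome, each genotype had a male (replicate 1) and a female (replicate 2).

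The genes were spread unevenly over the lineages, with fibroblasts, endothelial cells or immune cells at the top. Averaged over the 4 mice, Has1 was at 222 ± 75.2 CPM (SD, n = 4) in fibroblasts and at 201 ± 65.1 CPM in mesothelial cells, with overlapping mice, and next came mural cells at 45.8 ± 15.7 CPM. Has2 was low everywhere and highest in fibroblasts (14.1 ± 6.43 CPM), where its lowest mouse (8.28 CPM) stood above every mural and endothelial value. Cemip was at 47.1 ± 24.8 CPM in fibroblasts, 30.5 ± 26.0 CPM in mesothelial cells and 15.3 ± 6.41 CPM in mural cells, and neighbors in this order overlapped. In endothelial, epithelial and immune cells Cemip averaged 1.42, 1.41 and 0.692 CPM. Tnfaip6 was at 751 ± 269 CPM in fibroblasts and 147 ± 7.69 CPM in mural cells, and Vcan at 131 ± 23.4 and 104 ± 11.8 CPM, where the 2 lineages overlapped. Hyal2 belonged to endothelial cells (173 ± 14.2 CPM, against 10.1 ± 1.46 CPM in mural cells), and so did Lyve1 (547 ± 221 CPM, against 6.52 ± 3.29 CPM in immune cells). Cd44 was highest in immune cells (1000.0 ± 210 CPM), followed by fibroblasts (187 ± 42.1 CPM), epithelial and mural cells, which overlapped. Hyal1 was low in all lineages, from 2.87 ± 0.282 CPM in immune cells to 11.4 ± 1.74 CPM in endothelial cells. Levels of different genes are not compared here, since UMIs are taken from the 3′ end and differ in capture from gene to gene.

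**Figure D1:**
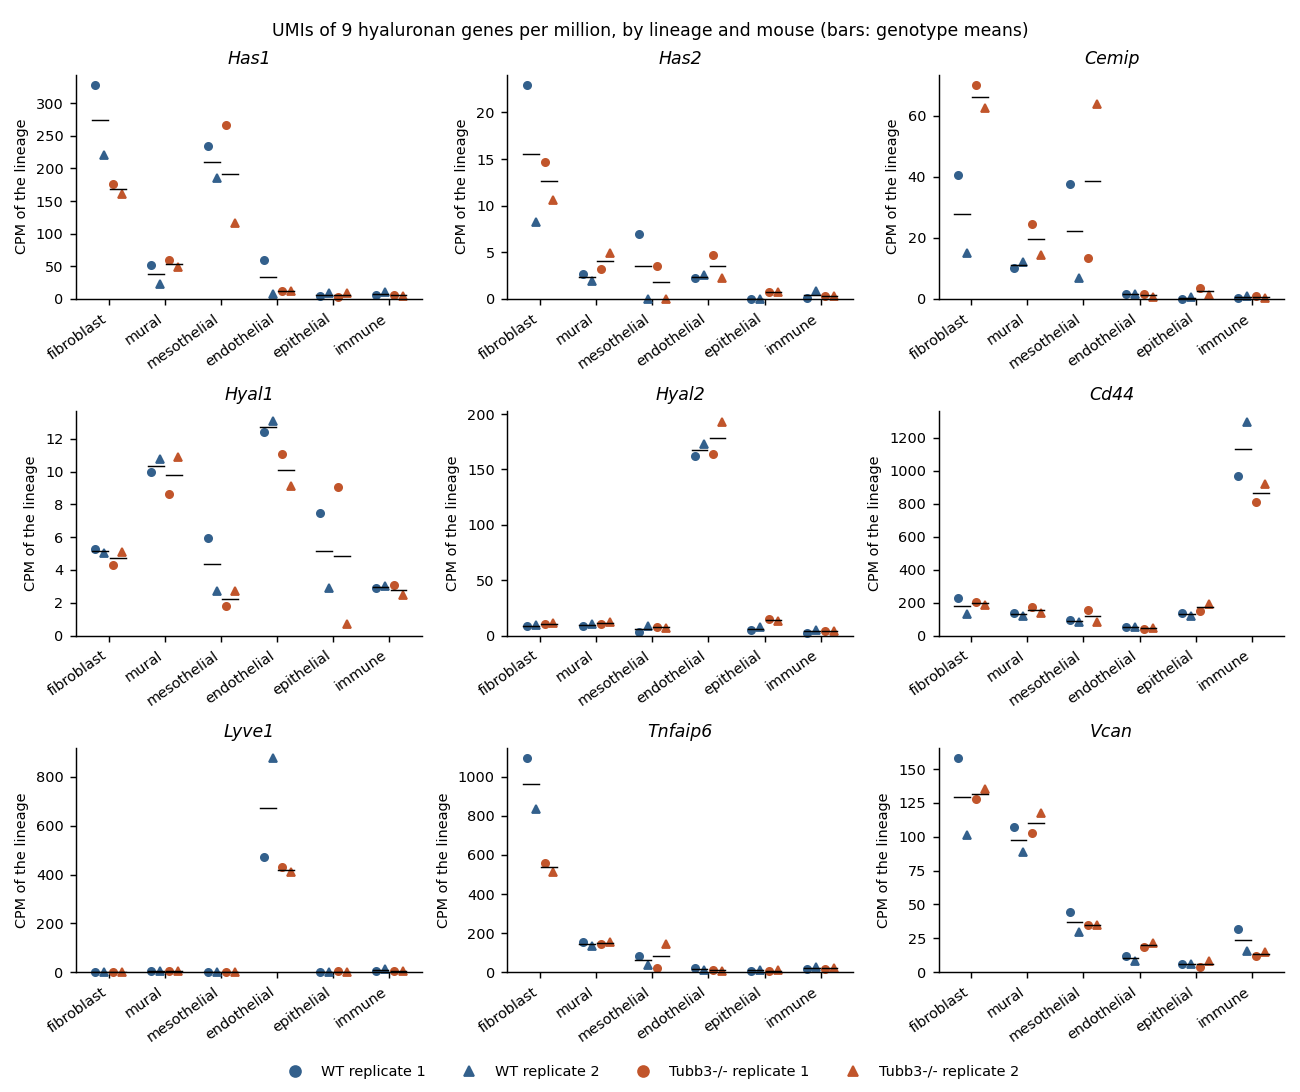
UMIs of each gene per 1000000 gene UMIs of a lineage (vertical axis, CPM from 0, a scale of its own for each gene) in the 6 lineages (horizontal axis). Points are single mice, blue for WT and orange for Tubb3-/-, circles for replicate 1 and triangles for replicate 2, and bars are genotype means of 2 mice; Tnfaip6 in fibroblasts is at 1094 and 835 CPM in WT mice and 560.1 and 515 CPM in Tubb3-/- mice.

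Shares of cells with a UMI were high in the lineages with a high CPM, although for Has1 mesothelial cells then came before fibroblasts. With each cell thinned at random to 2000 UMIs, Tnfaip6 was found in 40.1% of fibroblasts, against 2.15% of endothelial cells and 3.05% of immune cells. Has1 was found in 28.4% of mesothelial cells and 18.7% of fibroblasts, against 1.03% of immune cells, and Cemip in 4.54% of fibroblasts, against 0.0703% of immune cells. Lyve1 was found in 44.6% of endothelial cells against 0.265% of fibroblasts, and Hyal2 in 28.4% of endothelial cells against 0.492% of immune cells. Without thinning, the shares were 70.1% for Tnfaip6, 39.7% for Has1 and 13.9% for Cemip in fibroblasts, at a median of 17029.5 UMIs per cell, and 9.32%, 4.40% and 0.479% in immune cells, at a median of 6890 UMIs. Cells under 2000 UMIs, which thinning leaves out, numbered 13 and 9 among WT and Tubb3-/- fibroblasts and 51 and 71 among immune cells.

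For the 3 genes that the fibroblast results turn on, the 250 bases before the RefSeq start (GRCm38.p6) are shown, as the sequence next to which each is transcribed. Of the 9 genes, 7 had a promoter in the table. Letters are 5′ to 3′ on the strand of the gene, and capitals mark matches, on either strand, to 5 short motifs, none overlapping another here. The TATA box was searched as TATAAA. The site of AP-1, a factor of growth and stress responses, was searched as TGACTCA. The box bound by NF-Y was searched as CCAAT. The site of TEAD factors, the partners of YAP, was searched as GGAATG. The GC box of Sp1-type factors was searched as GGGCGG. The first lies at chr17:17855189-17855438 (minus strand), the second at chr2:52037863-52038112 (plus strand) and the third at chr7:84086506-84086755 (minus strand).
Has1: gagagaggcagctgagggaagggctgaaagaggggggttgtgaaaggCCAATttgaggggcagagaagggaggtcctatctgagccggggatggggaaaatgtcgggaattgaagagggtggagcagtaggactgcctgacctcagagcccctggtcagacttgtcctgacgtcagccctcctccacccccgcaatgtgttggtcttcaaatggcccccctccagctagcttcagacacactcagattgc
Tnfaip6: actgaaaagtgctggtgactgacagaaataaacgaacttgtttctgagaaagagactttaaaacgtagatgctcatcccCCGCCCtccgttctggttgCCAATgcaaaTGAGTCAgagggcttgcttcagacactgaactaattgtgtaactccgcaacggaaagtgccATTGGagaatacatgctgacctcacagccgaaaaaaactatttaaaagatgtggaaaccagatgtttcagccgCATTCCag
Cemip: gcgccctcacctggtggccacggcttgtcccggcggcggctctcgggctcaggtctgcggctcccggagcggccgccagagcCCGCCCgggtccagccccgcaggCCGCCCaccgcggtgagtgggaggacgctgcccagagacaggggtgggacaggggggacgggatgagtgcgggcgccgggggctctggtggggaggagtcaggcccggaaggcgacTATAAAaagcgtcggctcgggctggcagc

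The 3 promoters differed in base content and in the motifs they hold. GC made up 58.0% of the Has1 window, 44.4% of that of Tnfaip6 and 75.2% of that of Cemip. Cemip held a TATAAA whose first base lies 29 bases before the start, and 2 GC boxes. Tnfaip6 held an AP-1 match 142 bases before the start, next to a CCAAT box at 152, with another CCAAT box at 81, a GC box at 171 and a TEAD match at 8. Has1 held a CCAAT box at 203 and no other match. These distances are to the RefSeq start. The GENCODE starts of Tnfaip6 (chr2:52038009) and Has1 (chr17:17855205) lie inside the windows shown. The CCAAT box at 81 and the TEAD match at 8 of Tnfaip6 come after its GENCODE start. Among 32851 promoter windows of the same length, the TATA box was in 12.4%, the AP-1 site in 4.46%, the CCAAT box in 33.9%, the TEAD site in 12.6% and the GC box in 32.7%.

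Has1 was lower in fibroblasts of Tubb3-/- mice, while the genotypes overlapped in the next 3 lineages by level. Has1 (ENSMUSG00000003665, chr17:17843323-17855205, GENCODE vM21 on GRCm38, as for all genes here) was at 328 and 221 CPM in fibroblasts of the 2 WT mice and at 176 and 161 CPM in those of the 2 Tubb3-/- mice. Both Tubb3-/- mice were below both WT mice, with means of 274 ± 75.7 and 169 ± 10.8 CPM (SD, n = 2 each) and a log2 fold change of -0.72 (SE 0.22). The male pair differed by -0.89 and the female pair by -0.45 on the log2 scale. In mesothelial cells Has1 was at 234 and 185 CPM in WT mice and at 267 and 117 CPM in Tubb3-/- mice, so the genotypes overlapped, and they did so in mural cells, at 52.4 and 23.1 against 59.0 and 48.8 CPM. In endothelial cells, WT replicate 1 was at 60.4 CPM and the other 3 mice were between 7.29 and 12.6 CPM. A single cell gave 59 of the 136 Has1 UMIs of that mouse. In immune cells, where Has1 was low, both Tubb3-/- mice were lower, at 5.87 and 4.73 CPM against 6.11 and 10.3 CPM (-0.60, SE 0.29). Single cells gave 26 of 71 and 36 of 103 of the WT UMIs, and the log2 ratio of mean CPM ranged from -0.85 to 1.23 over the alternatives, with 3 changes of sign. In alveolar macrophages and Spp1 Arg1 macrophages both Tubb3-/- mice were above both WT mice, on 29 and 55 UMIs.

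Has2, the other synthase of these 9 genes, showed no such order in fibroblasts. Has2 (ENSMUSG00000022367, chr15:56665627-56694539) was at 22.9 and 8.28 CPM in WT fibroblasts and at 14.7 and 10.6 CPM in Tubb3-/- fibroblasts. The WT mice lay on both sides of the Tubb3-/- mice, and the log2 fold change was -0.33 (SE 0.48). In mural cells it was at 2.71 and 1.92 CPM in WT mice and at 3.25 and 4.89 CPM in Tubb3-/- mice, with both Tubb3-/- mice higher (0.75, SE 0.34). Only 173 UMIs in all lie behind these 4 values. The antisense gene Has2os overlaps Has2, and whether counting used strand is not stated in the sources used here. Whether reads of Has2os entered the counts of Has2 was not tested.

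Cemip was higher in fibroblasts of Tubb3-/- mice. Cemip (ENSMUSG00000052353, chr7:83932857-84086502), which binds and cuts hyaluronan outside the cell, was at 40.6 and 15.01 CPM in fibroblasts of WT mice and at 70.1 and 62.5 CPM in those of Tubb3-/- mice. Both Tubb3-/- mice were above both WT mice, with means of 27.8 ± 18.1 and 66.3 ± 5.36 CPM (SD, n = 2 each) and a log2 fold change of 1.22 (SE 0.44). The male pair differed by 0.79 and the female pair by 2.06 on the log2 scale. Its UMIs sat in few cells. The 10 fibroblasts with the most Cemip UMIs gave 64.2% and 68.3% of them in WT, but 35.5% and 42.5% in Tubb3-/- lungs, while for Tnfaip6 the top 10 cells gave between 11.6% and 13%. With each cell thinned to 2000 UMIs, Cemip was found in 3.48% and 1.36% of WT fibroblasts and in 6.94% and 5.76% of Tubb3-/- fibroblasts. Without thinning, the shares were 9.56% and 5.95% against 20.7% and 17.5% in fibroblasts, at median depths of 15205 and 18750.0 UMIs by genotype. In immune cells, which served as background, they were 0.249% and 0.822% against 0.500% and 0.396%, at 6756 and 7039 UMIs.

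In mural cells Cemip was at 10.0 and 12.1 CPM in WT mice and at 24.5 and 14.5 CPM in Tubb3-/- mice, again with no overlap (log2 fold change 0.84, SE 0.28). In the whole-cell libraries alone they overlapped, at 10.8 and 3.33 against 17.1 and 9.55 CPM. The fibroblast markers in the mural lineage, given above, were also higher in both Tubb3-/- mice, and their part in this difference was not tested. In mesothelial cells the 4 mice were at 37.8, 6.77, 13.4 and 64.0 CPM (WT, then Tubb3-/-), with only 134 UMIs in all, and the genotypes overlapped.

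Of the 2 hyaluronidases, Hyal2 differed little between genotypes in endothelial cells, where both were highest, while Hyal1 was lower there in both Tubb3-/- mice. Hyal2 (ENSMUSG00000010047, chr9:107567945-107572779), an enzyme anchored to the cell surface, was at 162 and 173 CPM in endothelial cells of WT mice and at 164 and 193 CPM in those of Tubb3-/- mice (log2 fold change 0.10, SE 0.12). In epithelial cells it was at 4.74 and 7.28 CPM in WT mice and at 15.3 and 12.95 CPM in Tubb3-/- mice, with no overlap (1.18, SE 0.43), on 57 UMIs in all, and the log2 ratio of mean CPM went from 1.11 to 0.51 with cells of several markers assigned by most UMIs. In fibroblasts it was at 8.36 and 9.37 against 10.6 and 11.03 CPM (0.28, SE 0.13). Hyal1 (ENSMUSG00000010051, chr9:107576927-107581710) was at 12.4 and 13.1 CPM in endothelial cells of WT mice and at 11.1 and 9.14 CPM in those of Tubb3-/- mice, both below the WT mice (-0.32, SE 0.23). Hyal1 overlaps Naa80 and Hyal3 on its own strand, so its counts are uncertain to that extent.

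The receptor Cd44 was lower in immune cells of Tubb3-/- mice, and in endothelial cells its order turned between the kinds of library. Cd44 (ENSMUSG00000005087, chr2:102811141-102901665) was at 969 and 1299 CPM in immune cells of WT mice and at 812 and 921 CPM in those of Tubb3-/- mice (log2 fold change -0.37, SE 0.16). In endothelial cells it was at 54.6 and 54.8 CPM in WT mice and at 41.8 and 44.4 CPM in Tubb3-/- mice (-0.33, SE 0.11). In both lineages both Tubb3-/- mice were below both WT mice. In endothelial cells of the mural cell-enriched libraries alone both were above, at 79.6 and 53.4 CPM against 45.8 and 51.2 CPM. In fibroblasts it was at 227 and 129 against 206 and 185 CPM, so that the WT mice enclosed the Tubb3-/- mice. In epithelial cells it was higher in both Tubb3-/- mice, at 148 and 194 CPM against 138 and 120.1 CPM (0.37, SE 0.21). In the whole-cell libraries alone, which hold 204 of the 321 epithelial cells, it was lower in both, at 126 and 129 CPM against 144 and 145 CPM.

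Lyve1 was lower in endothelial cells of Tubb3-/- mice, by a margin that WT replicate 2 sets. Lyve1 (ENSMUSG00000030787, chr7:110850607-110863239) was at 473 and 876 CPM in endothelial cells of WT mice and at 429 and 409.9 CPM in those of Tubb3-/- mice (log2 fold change -0.67, SE 0.25). Both Tubb3-/- mice were below both WT mice, but the log2 ratio of mean CPM went from -0.68 to -0.17 without WT replicate 2. The male pair differed by -0.14 and the female pair by -1.09. Outside endothelium Lyve1 was scarce, with 96 UMIs over all fibroblasts, where it was at 1.70 and 1.98 CPM in WT mice and at 0.989 and 1.21 CPM in Tubb3-/- mice (-0.74, SE 0.30).

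Tnfaip6 was lower in fibroblasts of Tubb3-/- mice and not in mural cells. Tnfaip6 (ENSMUSG00000053475, chr2:52038009-52056686) was at 1094 and 835 CPM in fibroblasts of WT mice and at 560.1 and 515 CPM in those of Tubb3-/- mice. Both Tubb3-/- mice were below both WT mice, with means of 965 ± 184 and 538 ± 31.8 CPM (SD, n = 2 each) and a log2 fold change of -0.86 (SE 0.18). The male pair differed by -0.97 and the female pair by -0.70. In mural cells, the lineage next in level, it was at 152 and 136 CPM in WT mice and at 146 and 153 CPM in Tubb3-/- mice, with a log2 fold change of 0.04 (SE 0.12). In mesothelial cells the 4 mice spread from 21.5 to 142 CPM, both in Tubb3-/- mice.

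Vcan overlapped between genotypes in fibroblasts but not in endothelial and immune cells. Vcan (ENSMUSG00000021614, chr13:89655312-89742509) was at 158 and 101 CPM in WT fibroblasts and at 128 and 136 CPM in Tubb3-/- fibroblasts (log2 fold change 0.01, SE 0.23). In endothelial cells it was at 12.0 and 8.29 CPM in WT mice and at 18.9 and 21.7 CPM in Tubb3-/- mice (1.06, SE 0.23), with both Tubb3-/- mice higher. The log2 ratio of mean CPM went from 0.94 to 0.21 where cells with markers of several lineages were assigned by most UMIs. In immune cells it was at 31.9 and 15.7 CPM in WT mice and at 11.7 and 14.7 CPM in Tubb3-/- mice (-0.85, SE 0.35), with both lower. That margin rests on WT replicate 1, since the log2 ratio of mean CPM went from -0.80 to -0.24 without it, and the male and female pairs differed by -1.45 and -0.10. The genes Gm16318 and Gm4117 overlap Vcan on the other strand, as Gm16343 does Hyal1, Gm9917 Hyal2 and Gm23731 Cd44.

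**Figure D2:**
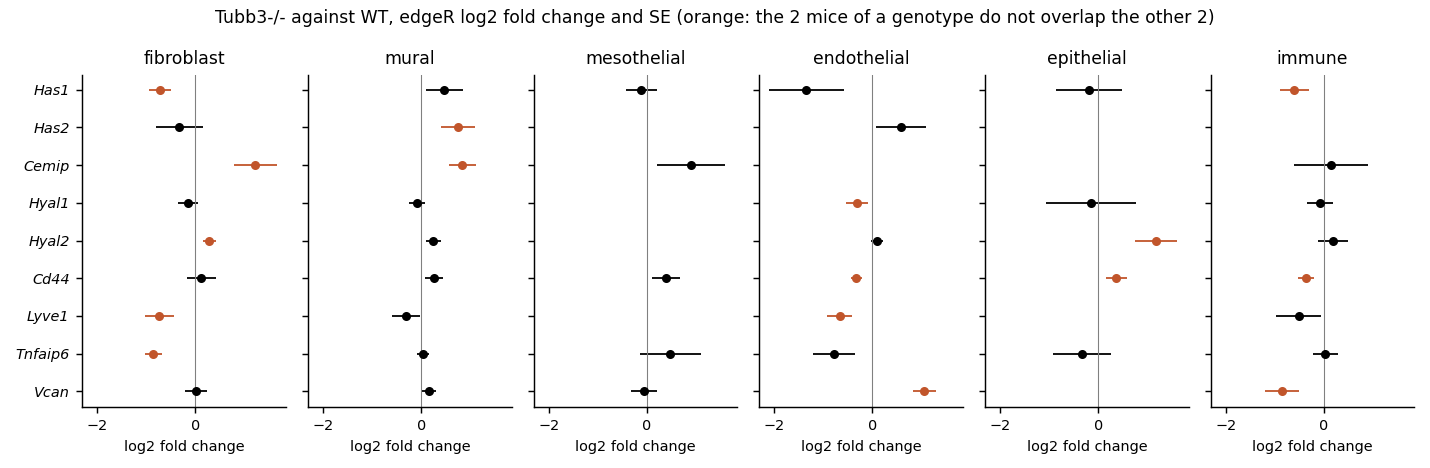
Log2 fold change of Tubb3-/- against WT mice from edgeR (horizontal axis, bars are SE) for the 9 genes (vertical axis) in each lineage, for the 44 pairs of gene and lineage that passed the filter on low counts. Orange marks the 16 pairs in which the 2 mice of a genotype did not overlap the other 2; in fibroblasts Has1 (-0.72) and Tnfaip6 (-0.86) lie left of 0 and Cemip (1.22) right of it.

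Counted over the 6 lineages, 44 of 54 pairs of gene and lineage passed the filter on low counts, and in 16 of these the genotypes did not overlap, 7 with both Tubb3-/- mice higher and 9 with both lower. With 2 mice against 2 such an order is frequent, so each count is set beside that of all genes tested in the lineage. In fibroblasts 2 of 9 genes were above (24.5% of all genes) and 3 below (23.6%). In mural cells 2 of 9 were above (22.2%) and 0 below (18.9%), and in mesothelial cells 0 of 5 were above (19.1%) and 0 below (18.8%). In endothelial cells 1 of 8 was above (20.9%) and 3 below (24.1%), in epithelial cells 2 of 5 were above (21.6%) and 0 below (12.6%), and in immune cells 0 of 8 were above (19.2%) and 3 below (21.2%). The median log2 fold change of the genes that passed was -0.15 in fibroblasts and 0.25 in mural cells, against -0.004 and 0.004 for all genes tested. Since the genes were chosen with these values known, nothing is read from the counts. Not passing were Has2, Hyal1, Hyal2 and Lyve1 in mesothelial cells, Cemip in endothelial cells, Has2, Cemip, Lyve1 and Vcan in epithelial cells and Has2 in immune cells.

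The fibroblast values were repeated in the 2 libraries of each mouse, which come from the same lung and are no further replicates. In the whole-cell libraries, Has1 was at 406 and 213 CPM in WT and at 187 and 150.3 CPM in Tubb3-/- fibroblasts. In the mural cell-enriched libraries it was at 296 and 225 against 170.0 and 167 CPM. Tnfaip6 was at 1175 and 776 against 554 and 435 CPM in the whole-cell libraries, and at 1062 and 866 against 564 and 558 CPM in the enriched ones. Cemip was at 23.4 and 11.5 against 66.5 and 66.5 CPM, and at 47.5 and 16.9 against 72.3 and 60.4 CPM. For all 3 genes the genotypes did not overlap in either kind of library.

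**Figure D3:**
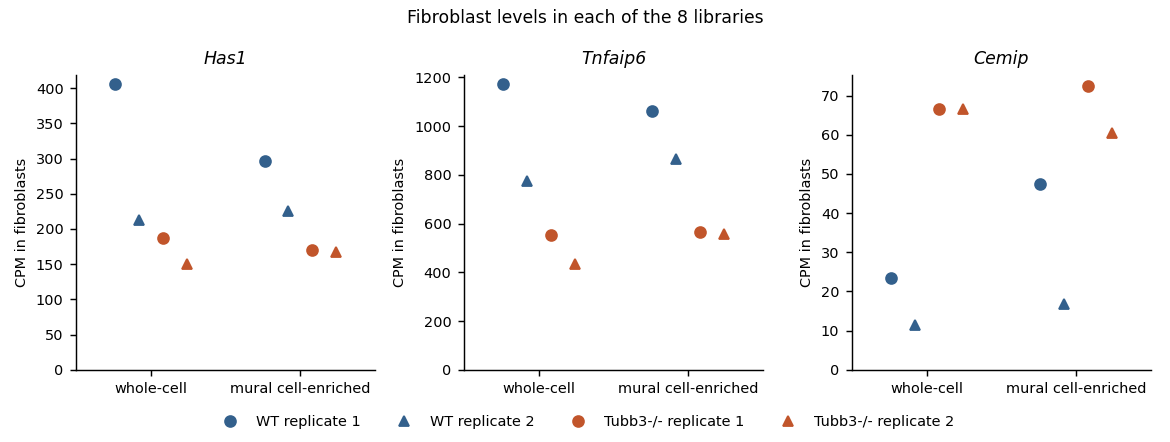
Level of Has1, Tnfaip6 and Cemip in fibroblasts (vertical axis, CPM from 0) in the whole-cell and the mural cell-enriched libraries (horizontal axis). Points are single mice, blue for WT and orange for Tubb3-/-, circles for replicate 1 and triangles for replicate 2; Has1 and Tnfaip6 are lower, and Cemip higher, in both Tubb3-/- mice in each kind of library.

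Fibroblasts of the injured lung are of several types, and the genotypes differed in the shares of some, but overlapped in that of adventitial fibroblasts. A cell was counted in a type when it held at least 2 UMIs of each of 2 of its 3 markers, and it could count in several types, a choice made after seeing that most inflammatory fibroblasts matched another type too. Alveolar fibroblasts (Npnt, Ces1d, Inmt) made up 70.2% and 85.5% of WT fibroblasts and 63.7% and 65.2% of Tubb3-/- fibroblasts. Fibrotic fibroblasts (Cthrc1, Postn, Runx1) made up 10.8% and 5.39% against 23.8% and 19.8%, and inflammatory fibroblasts (Saa3, Lcn2, Sfrp1) 4.84% and 2.92% against 12.4% and 8.19%. Adventitial fibroblasts (Pi16, Dpp4, Ly6c1) made up 11.2% and 3.93% against 7.48% and 6.24%, and peribronchial fibroblasts (Hhip, Aspn, Lgr6) 12.0% and 11% against 13.4% and 16.1%. Types were called without matching depth, which was 15205 UMIs at the median in WT and 18750.0 in Tubb3-/- fibroblasts, and the part of depth in these shares was not tested. The part of the shares in the differences over all fibroblasts was not tested, and the levels within each type are given instead.

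Has1 marked adventitial fibroblasts, at 881 CPM over all mice, against 148 to 225 CPM in the other 4 types. Within these cells it was at 1124 and 941 CPM in WT mice and at 835 and 590.3 CPM in Tubb3-/- mice. In alveolar fibroblasts it was at 219.8 and 192 against 138 and 139.7 CPM, and in fibrotic fibroblasts at 207 and 223 against 158 and 139 CPM. In each of these 3 types both Tubb3-/- mice were lower, as they were in peribronchial but not in inflammatory fibroblasts. With cells that match several types dropped, Has1 in fibrotic fibroblasts was 63.6 CPM over all mice in place of 164 CPM, and both Tubb3-/- mice remained lower.

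Tnfaip6 was also highest in adventitial fibroblasts, at 1338 CPM, and lowest in fibrotic ones, at 448 CPM. Within alveolar fibroblasts it was at 994 and 829 CPM in WT mice and at 563 and 500.3 CPM in Tubb3-/- mice. Within fibrotic fibroblasts it was at 892 and 483 against 400.3 and 293 CPM, and within inflammatory fibroblasts at 1132 and 1037 against 801 and 656 CPM. The genotypes did not overlap in these types nor in peribronchial fibroblasts, and they overlapped in adventitial fibroblasts (1817 and 1089 against 1265 and 927 CPM). With cells that match several types dropped, Tnfaip6 in fibrotic fibroblasts was 282 CPM over all mice, again lower in both Tubb3-/- mice.

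Cemip went with the fibrotic type, at 123 CPM against 16.5 to 68.5 CPM in the other 4. Of its 3474 fibroblast UMIs, 1686 were in fibrotic and 2154 in the more numerous alveolar fibroblasts, some in cells that count as both. Within them it was at 133 and 61.4 CPM in WT mice and at 111 and 148 CPM in Tubb3-/- mice, so the genotypes overlapped. In alveolar fibroblasts it was at 30.1 and 11.7 against 65.5 and 58.3 CPM, and in inflammatory fibroblasts at 20.8 and 0 against 83.1 and 87.8 CPM. The inflammatory values rest on 18 and 0 UMIs in 42 and 26 WT cells, and 240 and 153 UMIs in 131 and 80 Tubb3-/- cells. Of the 279 inflammatory fibroblasts, 266 also matched another type. Where cells that match several types are dropped, the order in fibrotic fibroblasts turned, at 305 and 141 CPM in WT mice and 77.3 and 95.0 CPM in Tubb3-/- mice, on 41, 19, 133 and 90 cells. In alveolar fibroblasts chosen this way Cemip was at 34.2 and 12.7 against 64.1 and 34.6 CPM. The difference in Cemip over all fibroblasts was thus not seen in each type.

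**Figure D4:**
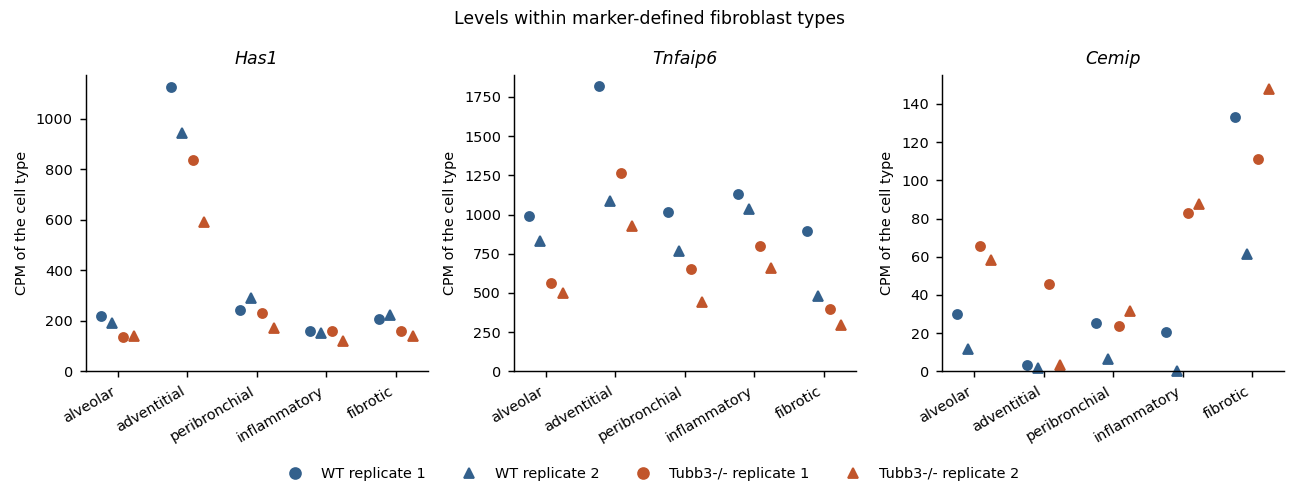
Level of Has1, Tnfaip6 and Cemip (vertical axis, CPM from 0) in 5 fibroblast types defined by markers (horizontal axis), a cell counting in each type it matches. Points are single mice, blue for WT and orange for Tubb3-/-, circles for replicate 1 and triangles for replicate 2; Has1 is highest in adventitial (881 CPM over all mice) and Cemip in fibrotic fibroblasts (123 CPM).

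The other genes also split within their lineages. Among mural cells, Vcan was at 107 CPM in smooth muscle cells and 21.3 CPM in pericytes, Cemip at 12.5 and 1.93 CPM, and Has1 at 35.8 and 13.8 CPM. The 620 mural cells that matched neither type stood above both for Has1 (177 CPM) and Cemip (54.1 CPM) and gave 36.1% and 33.6% of the mural UMIs of these genes. Within smooth muscle cells Cemip was at 3.404 and 14.5 CPM in WT mice and at 20.01 and 11.3 CPM in Tubb3-/- mice, and within pericytes at 0.867 and 3.41 against 2.45 and 1.01 CPM, on 13 UMIs. For Cemip the genotypes thus overlapped in each mural type, although they did not over all mural cells. Tnfaip6 overlapped over all mural cells, but both Tubb3-/- mice were higher in each type. It was at 115.3 and 97.08 CPM in WT and 132.5 and 116.4 CPM in Tubb3-/- smooth muscle cells. In pericytes it was at 80.58 and 113.4 against 159.8 and 123.7 CPM. The 2 mural types were not separate sets of cells, as 339 of 611 pericytes also counted as smooth muscle cells. By mouse these were 66 of 114 and 35 of 136 pericytes in WT mice, and 134 of 195 and 104 of 166 in Tubb3-/- mice. Has1 was higher in both Tubb3-/- mice in smooth muscle cells (29.97 and 15.96 against 45.94 and 39.79 CPM) and overlapped in pericytes. Among endothelial cells, Hyal1 was at 44.4 CPM in aCap cells (aerocytes, the thin capillary cells of gas exchange) and at 4.26 to 6.75 CPM in gCap (general capillary), arterial and venous cells. Hyal2 was at 179 to 213 CPM in all 4. Here too a cell could count in several types, as 514 of 737 arterial and 561 of 1198 gCap cells did. Lyve1 was at 994 CPM in venous cells, 511 in arterial cells, 481 in gCap cells and 179 CPM in aCap cells, and lymphatic cells, the type that LYVE1 is known for, were only 38 and are not described. Within gCap cells, Lyve1 was at 449 and 887 CPM in WT mice and 364 and 409 CPM in Tubb3-/- mice. Vcan was at 66.3 CPM in venous cells and at 7.099 to 17.3 CPM in the other 3.

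In immune cells Cd44 was highest in alveolar macrophages (1842 CPM), neutrophils (1615 CPM), Spp1 Arg1 macrophages (1489 CPM) and monocytes (1406 CPM), and lowest in B cells (243 CPM). Of the alveolar macrophages 221 of 291 also matched another type, as did 332 of 499 Spp1 Arg1 macrophages, so the types were not separate sets of cells. Only 5 and 11 cells of the Tubb3-/- mice matched the alveolar macrophage type alone. Both Tubb3-/- mice were below both WT mice in alveolar macrophages (1452 and 1692 against 2040.0 and 2018 CPM), in Spp1 Arg1 macrophages (1217 and 1370.0 against 1756 and 1836 CPM) and in neutrophils (1486 and 1315 against 1927 and 1780.0 CPM). The same order was seen in interstitial macrophages and dendritic cells. In monocytes (1562 and 1537 against 1173 and 1454 CPM) and NK cells (398 and 714 against 169 and 229 CPM) they were above, and in T and B cells the genotypes overlapped. Vcan was a monocyte gene, at 234 CPM against at most 10.2 CPM in the other immune types, and was at 368 and 205 CPM in monocytes of WT mice and at 134 and 170 CPM in those of Tubb3-/- mice. Tnfaip6 was highest in neutrophils (56.1 CPM) and monocytes (34.7 CPM). Lyve1 was highest in interstitial macrophages (21.3 CPM), where WT replicate 2 was at 129 CPM and the other mice at 4.37 to 15.1 CPM.

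The 38 other genes of hyaluronan supply, synthesis, breakdown and binding were tested by genotype. The choice of the 9 did not use their values, but their list too was drawn up with earlier results of these data known. With the mice unpaired, in no lineage did any of them pass the test at an adjusted p-value of 0.05 (quasi-likelihood test in edgeR, p-values adjusted by Benjamini-Hochberg over every gene tested in the lineage). The counts called were 0 of 24 tested in fibroblasts, 0 of 25 in mural cells, 0 of 16 in mesothelial cells, 0 of 22 in endothelial cells, 0 of 14 in epithelial cells and 0 of 21 in immune cells. Of all genes, 0.0% were called in fibroblasts and 0.0% in mural, endothelial, epithelial and immune cells each, and 0.356% in mesothelial cells. At an unadjusted p-value under 0.05 the counts were 6 in fibroblasts (18.1% of all genes), 6 in mural cells (11.1%), 1 in mesothelial cells (8.58%), 4 in endothelial cells (13.6%), 2 in epithelial cells (4.26%) and 3 in immune cells (8.37%). DESeq2 called 1 of these genes in mural cells, where it called 1.11% of all genes, and 1 in endothelial cells, where it called 0.997%, Hmmr in both.

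Of the genes that supply the sugars, Gfpt2 and Ugdh were highest in the lineages where Has1 was highest. Gfpt2, which makes glucosamine 6-phosphate, the first step of the UDP-GlcNAc supply, was at 289 CPM in mesothelial cells and 234 CPM in fibroblasts, against 5.39 to 35.3 CPM in the other 4 lineages. Ugdh, which makes UDP-glucuronic acid, was at 161 CPM in fibroblasts and 80.8 CPM in mesothelial cells. In fibroblasts Ugdh was at 277 and 132 CPM in WT mice and at 132 and 104 CPM in Tubb3-/- mice (log2 fold change -0.82, SE 0.37, edgeR adjusted p = 0.314), and WT replicate 1 stood apart. Gfpt2 averaged 276 CPM in WT and 191 CPM in Tubb3-/- fibroblasts (-0.54, SE 0.23, edgeR adjusted p = 0.29). Of the 7 supply genes, 2 in fibroblasts and 2 in mural cells had an unadjusted p-value under 0.05, against 18.1% and 11.1% of all genes. In fibroblasts Ugdh (edgeR unadjusted p = 0.07) and Gfpt2 (edgeR unadjusted p = 0.0572) were not among them. In mural cells the 2 were Ugdh (edgeR unadjusted p = 0.0439) and Gfpt2 (edgeR unadjusted p = 0.0379), both lower in the Tubb3-/- mice. Has3, the remaining synthase, was at 6.37 CPM in mesothelial cells and at most 1.40 CPM elsewhere.

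Of the genes of breakdown, Cemip2, a membrane relative of Cemip that also cuts hyaluronan, was an endothelial gene, at 1015 ± 44.3 CPM (SD, n = 4) against 22.4 to 37.9 CPM in the other lineages. It did not differ detectably in endothelial cells (log2 fold change -0.03, SE 0.09, edgeR adjusted p = 0.919) and was at 27.6 CPM in WT and 38.9 CPM in Tubb3-/- fibroblasts (0.48, SE 0.15, edgeR adjusted p = 0.2). Endothelial cells thus held the highest mean level of Cemip2, Hyal2, Lyve1 and Hyal1 of the 6 lineages, for Hyal1 with overlap with mural cells.

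Among the receptors, Tlr2 was at 174 CPM in immune cells and 5.11 to 12.4 CPM elsewhere, and Stab1, a scavenger receptor, at 84.4 CPM in endothelial cells and 17.9 CPM in immune cells. Hmmr, which binds hyaluronan and also the spindle of dividing cells, was picked here after its values were seen. It was at 5.08 CPM in WT and 15.9 CPM in Tubb3-/- endothelial cells (log2 fold change 1.64, SE 0.24, edgeR adjusted p = 0.0736) and at 0.522 and 6.32 CPM in mural cells (3.5, SE 0.55, edgeR adjusted p = 0.156). In fibroblasts it was at 2.65 and 6.10 CPM (1.18, SE 0.38, edgeR adjusted p = 0.205). Of the matrix linkers, Itih4 was a mural gene at 633 CPM, against 5.26 to 37.8 CPM elsewhere, with a log2 fold change of 0.13 (SE 0.17) there. Ptx3, a partner of TSG-6 in hyaluronan matrix, was at 28.1 CPM in fibroblasts, and its mice ranged from 9.01 to 58.5 CPM, both in WT mice.

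**Figure D5:**
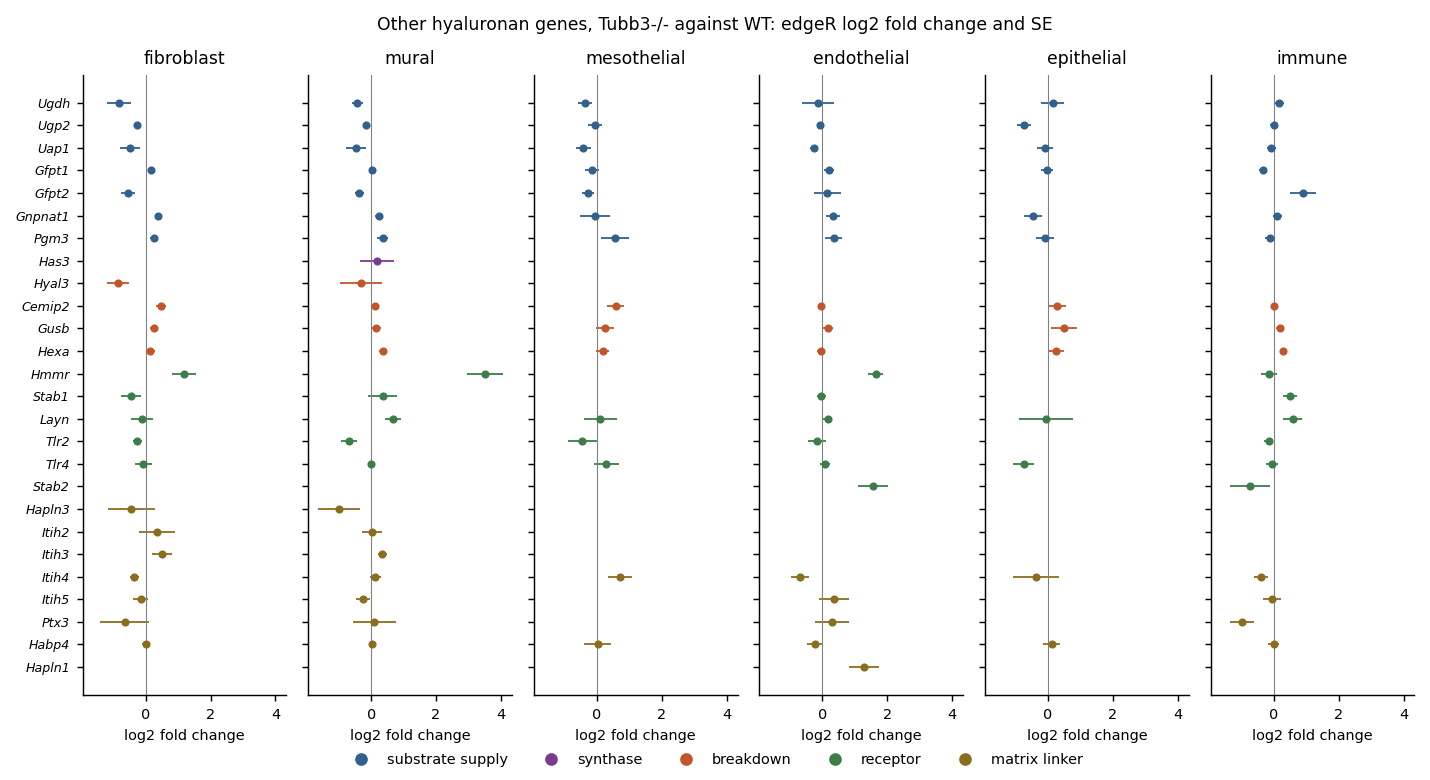
Log2 fold change of Tubb3-/- against WT mice from edgeR (horizontal axis, bars are SE) for other hyaluronan genes that passed the filter in at least 1 lineage (vertical axis), colored by role. In none of the 6 lineages did a gene pass an adjusted p-value of 0.05; Hmmr in mural cells lies farthest from 0, at 3.5.

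Genes whose level followed each of the 9 most closely were sought over the 24 sums of a mouse and a lineage, among 12390 genes that averaged 10 CPM or more in some lineage (Pearson's r of log2(CPM + 1)). The sums of a lineage share cells of 1 kind and those of a mouse share libraries, so r mostly reflects which lineage a gene belongs to. Has1 was most like Serping1 (r = 0.972), Dcn (0.969) and C1ra (0.957). Cemip was most like Col3a1 (0.945), Lgr5 (0.944) and Fndc3b (0.941). For Tnfaip6 they were 1200007C13Rik (0.960), Rem1 (0.955) and Gng8 (0.952), and for Vcan Fgfr1 (0.975), Cyp7b1 (0.944) and Dact3 (0.944). Lyve1 was most like Klhl5 (0.977), Snrk (0.974) and Ptprb (0.974), Hyal2 like A030001D20Rik (0.973), Dok4 (0.964) and Ecscr (0.962), and Cd44 like Capg (0.973), Ctsz (0.944) and Tep1 (0.939). The scarce Has2 (Dexi, Ptger1 and Tfpi2, 0.891 to 0.899) and Hyal1 (Rbm4b, Polg and Dgcr8, 0.862 to 0.872) had lower values.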

How the data were processed

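Single-cell RNA-seq of 4 mice was used. The authors deposited, for each of 8 libraries, counts of UMIs per gene and cell from Cell Ranger 7.1.0 on mm10 with an added Cre gene, with no normalization. Whether counting used strand is not given in the sources used here. The deposited matrices also hold tag counts, which were set aside, and the leading tag of each library was that of its mouse in the labels.

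Following the study's methods, cells under 200 or over 7500 genes, or with more than 15% of UMIs from mitochondrial genes, were dropped. Doublets were not removed (Scrublet in scanpy 1.11.5 marked 0.982% of the whole-cell and 3.82% of the mural cell-enriched pool) and their removal is an alternative. UMIs were summed per mouse and lineage over both libraries, between 1004521 and 21233601 per sum, and precision is limited by 2 mice per genotype. CPM are on the total of the lineage. Log2 fold changes, SE and p-values come from edgeR 4.0.16 in R 4.3.3 (filterByExpr, TMM, quasi-likelihood test, Benjamini-Hochberg adjustment), checked on simulated counts. The libraries were not used as replicates.

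The 9 genes and all gene lists were chosen with earlier results of these data known. Of the other hyaluronan genes, the text names those called and in each role the 2 with the highest CPM in any lineage, and for each of the 9 the 3 genes most like it. Of these, 1 gene is included in the counts but not reported here. Alternatives were DESeq2 1.42.0, no filter, a replicate block, each mouse left out, 2 UMIs of a marker, Scrublet, no limits on cells, each pool alone and TMM scaling. A further alternative, giving cells with markers of several lineages to the marker with the most UMIs, and the count of cells in several types were added after the data were seen. Gene IDs matched GENCODE vM21 for 32158 of 32286 genes.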

Additional observations from a re-analysis of the deposited data

How the results depend on the processing

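With 2 mice per genotype, counts of calls moved with the setting. Of the 38 other hyaluronan genes 0 passed as reported. A replicate block, with the number as a pair (the labels do not say that it marks a litter or batch, but both pairs share a sex), gave 5 in fibroblasts (Hmmr, Gnpnat1 and Cemip2 higher in Tubb3-/- mice, Ugdh and Gfpt2 lower), where it called 10.6% of all genes, 3 in mural cells (Hmmr and Layn higher, Ugdh lower), where it called 3.68%, and 0 elsewhere. Same-numbered mice deviated together with r = 0.551 in fibroblasts and 0.441 in mural cells over genes. DESeq2 gave 1 in mural (1.11% of all genes) and 1 in endothelial cells (0.997%). With no filter there were 5 in mural (3.72%), 1 in mesothelial (1.9%) and 2 in endothelial cells (4.3%). With 2 or more UMIs of a marker there was 1 in mesothelial (0.087%) and 2 in endothelial cells (1.25%). Cells with several markers, given to the lineage of most UMIs, gave 1 in endothelial cells (0.209%). Leaving out each mouse in turn gave 0 to 4 in fibroblasts, 0 to 4 in mural cells, and 0 to 1 in mesothelial, endothelial and immune cells. Such a fit has only 1 mouse in a genotype. Where a WT mouse was left out, many genes outside the hyaluronan list were called too in fibroblasts and mural cells. Nothing particular to hyaluronan genes is therefore read from the counts with a mouse left out. The log2 fold change of Ptx3 in fibroblasts was 1.36 without WT replicate 1 and -1.42 without WT replicate 2. The causes were not tested.

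For the 9 genes, the number of pairs of gene and lineage without overlap was 16, and 25 with 2 or more UMIs of a marker. It was 29 to 32 with each mouse left out in turn, where 3 mice are left and overlap is rarer by construction. The share of all genes without overlap was not computed under these alternatives, so nothing is read from the change in counts. In fibroblasts the log2 ratio of mean CPM stayed negative for Has1 (-0.95 to -0.39) and Tnfaip6 (-1.02 to -0.63) and positive for Cemip (0.69 to 2.07) under all 11 alternatives. Assigning cells with several markers turned the sign of 10 of 44 pairs, the whole-cell libraries alone 8 and the mural cell-enriched ones 10.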
